A study of Mus musculus with 80 samples.

Results

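The genes described are 9 members of the p53 response and of growth arrest in mouse liver across doses of DEHP and DCA, namely Cdkn1a, Mdm2, Fas, Gadd45a, Gadd45b, Ccng1, Bax, Btg2 and Phlda3. They were taken by symbol, and all 9 were found among the 18877 gene rows of the DEHP count table and among the 17672 rows of the DCA table. DEHP, di(2-ethylhexyl) phthalate, is a plasticiser, fed to groups of 4 mice over 7 days at dietary levels of 0, 1500, 3000 and 6000 ppm. DCA, dichloroacetic acid, is a by-product of water chlorination. Groups of 6 mice drank it at 0, 1, 2 and 3.5 g/L, for a time that was not given in the sources used here. All 40 animals were male B6C3F1 mice, 4 weeks old per the labels, with no genetic alteration named. Each gave 1 library from frozen liver (mixed lobes) and 1 from formalin-fixed, paraffin-embedded (FFPE) liver lobes, 80 libraries in all. The DEHP livers were collected in 2013 and the DCA livers in 1994, so chemical, route, year and storage time differ together. Each animal is 1 replicate.

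The protein p53 (gene Trp53) is a transcription factor that is held at a low level by Mdm2, a ubiquitin ligase that marks it for degradation. DNA damage and other stresses release it, and it then switches on genes that stop the cell cycle (Cdkn1a, Gadd45a, Btg2, Ccng1), genes that promote cell death (Fas, Bax), and Mdm2 itself, which closes a feedback loop. Several of these genes also answer to other factors in liver: Gadd45b and Btg2 are stress-induced, immediate early-like genes, and Cdkn1a varies with feeding and hormones. DEHP and DCA both cause liver tumours in mice, and DEHP acts in rodent liver through the nuclear receptor PPAR alpha.

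Promoter windows are shown for 5 of the genes, because these are the ones whose levels moved with a treatment or a preparation in the results that follow. Each window runs from 250 bases before to 50 bases after a RefSeq transcription start on GRCm38.p6, 5′ to 3′ on the gene's strand, with matches to the p53 half-site (the 10-base consensus of p53 binding, no mismatch, both strands) in capitals. The windows are Cdkn1a at chr17:29090729-29091028 (+), Mdm2 at chr10:117710709-117711008 (−), Fas at chr19:34290409-34290708 (+), Gadd45a at chr6:67037358-67037657 (−) and Gadd45b at chr10:80929841-80930140 (+).
Cdkn1a: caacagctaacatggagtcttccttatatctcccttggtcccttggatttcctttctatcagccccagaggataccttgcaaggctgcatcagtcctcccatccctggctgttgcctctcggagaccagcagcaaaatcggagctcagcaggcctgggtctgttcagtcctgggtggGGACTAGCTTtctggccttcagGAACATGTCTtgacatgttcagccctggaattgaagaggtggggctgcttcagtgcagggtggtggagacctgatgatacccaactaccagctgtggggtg
Mdm2: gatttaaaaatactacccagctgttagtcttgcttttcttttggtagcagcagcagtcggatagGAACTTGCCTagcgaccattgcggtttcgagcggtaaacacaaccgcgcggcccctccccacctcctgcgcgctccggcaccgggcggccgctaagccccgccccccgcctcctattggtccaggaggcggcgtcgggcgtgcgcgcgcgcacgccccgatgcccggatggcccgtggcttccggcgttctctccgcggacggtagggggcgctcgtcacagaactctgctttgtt
Fas: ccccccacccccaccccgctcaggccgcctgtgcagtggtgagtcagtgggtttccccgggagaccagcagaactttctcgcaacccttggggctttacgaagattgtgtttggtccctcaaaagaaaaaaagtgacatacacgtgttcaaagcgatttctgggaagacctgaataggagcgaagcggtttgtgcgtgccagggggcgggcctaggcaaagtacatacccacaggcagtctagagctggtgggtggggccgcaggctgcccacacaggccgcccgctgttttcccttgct
Gadd45a: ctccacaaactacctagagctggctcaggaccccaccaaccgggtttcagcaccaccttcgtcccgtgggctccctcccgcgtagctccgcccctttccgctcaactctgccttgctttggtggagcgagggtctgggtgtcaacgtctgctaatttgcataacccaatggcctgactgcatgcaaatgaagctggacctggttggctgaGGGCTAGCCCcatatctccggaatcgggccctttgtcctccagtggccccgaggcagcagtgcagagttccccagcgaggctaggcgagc
Gadd45b: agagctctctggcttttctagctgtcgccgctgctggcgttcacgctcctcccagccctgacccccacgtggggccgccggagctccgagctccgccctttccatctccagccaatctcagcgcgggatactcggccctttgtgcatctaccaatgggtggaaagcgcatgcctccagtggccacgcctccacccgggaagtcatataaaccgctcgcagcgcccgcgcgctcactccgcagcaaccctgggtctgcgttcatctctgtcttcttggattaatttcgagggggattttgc
The Cdkn1a window, the first of 2 starts listed, holds 2 half-sites, from −73 to −64 and from −51 to −42 relative to the start. The window of the second Cdkn1a start, chr17:29093519-29093818 (+), is not shown and holds none. Mdm2 has 1 from −186 to −177 and Gadd45a has 1 from −40 to −31. The Fas and Gadd45b windows hold none and share the E-box CACGTG, at −110 to −105 in Fas and −185 to −180 in Gadd45b. All 9 genes were matched to RefSeq, in 10 windows, of which 5 held a half-site, against 8.36% of all 32851 promoter windows. These 5 were the first window of Cdkn1a and those of Mdm2, Gadd45a, Ccng1 and Bax. CACGTG stood in 3 of the 10 windows and in 7.15% of all windows. Beside Fas and Gadd45b it was in the Bax window, from −9 to −4 and from 36 to 41. The box CCAAT stood in 5 of the 10 and in 37.4% of all. A direct repeat of AGGTCA spaced by 1 base, the kind of element that PPAR alpha binds, was in none of the 10 and in 0.0396% of all windows. These are matches of letters in short windows, and regions outside them, such as introns, were not searched.

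Values are given as CPM, the RSEM expected count of a gene scaled to the TMM-adjusted size of its library. Total counts were 16582950 to 29550620 in DEHP frozen and 11673030 to 18866110 in DEHP FFPE libraries. Those of DCA frozen libraries were 3067666 to 16890020, and 3 libraries of 2 g/L sequenced in 1 lane (animals 73, 74 and 75) had at most 3854949. In DCA FFPE libraries they lay between 109292 and 8434613, and the 12 libraries of the upper 2 doses held at most 653006. Over all genes, the frozen library of 14 of the 16 DEHP animals was most like its own FFPE library. The exceptions, 35A and 67C of the 3000 ppm group, were each more like the other's, so results that rest on them are also given without both. The 6 hepatocyte markers, albumin among them, were expressed in all frozen libraries, with a summed level of 50119.7 to 84834 CPM in DEHP and 61013 to 127711 CPM in DCA. All 6 listed PPAR alpha targets rose at the top dose of both chemicals, with Cyp4a14 higher by 7.61 ± 1.05 (log2, SE) at 6000 ppm DEHP (adjusted p = 0.000179) and by 10.08 ± 0.73 at 3.5 g/L DCA (adjusted p = 1.04e-10).

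Fas was the one member that rose with both chemicals. In frozen liver it rose at 3000 and 6000 ppm DEHP and at 2 and 3.5 g/L DCA, by 0.72 to 0.91 on the log2 scale. Gadd45b rose at the top DEHP dose, and Gadd45a and Mdm2 rose at the top DCA dose. No change of Cdkn1a, Ccng1, Bax or Btg2 passed the test at any dose in frozen liver, and Phlda3 had too few counts to be tested. Calls throughout are adjusted p-values under 0.05 from edgeR's quasi-likelihood test, 2-sided, adjusted over all genes tested by Benjamini-Hochberg. Of the 9 members, 8 passed the filter on low counts in DEHP frozen, DEHP FFPE and DCA frozen libraries. At 1500 ppm DEHP in frozen liver 0 of 8 were called (0 at unadjusted p under 0.05 and 0 by DESeq2), where 6.48% of all tested genes were. At 3000 ppm 1 of 8 was called against 14.7% of all genes, and at 6000 ppm 2 of 8, both higher, against 11.8% called and 7.05% called higher. For the slope on dose, 1 of 8 was called against 2.61%. Frozen DCA livers gave 0 of 8 at 1 g/L (2 at unadjusted p under 0.05, 0 by DESeq2) against 11.1%, 2 of 8 at 2 g/L against 29.2%, and 3 of 8, all higher, at 3.5 g/L against 43.0% called and 21.9% called higher. The slope on DCA dose was called for 3 of 8 members, against 39.3% of all genes. With DCA the share of members called at each dose, counting calls in both directions, was not above that of all genes.

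**Figure D1:**
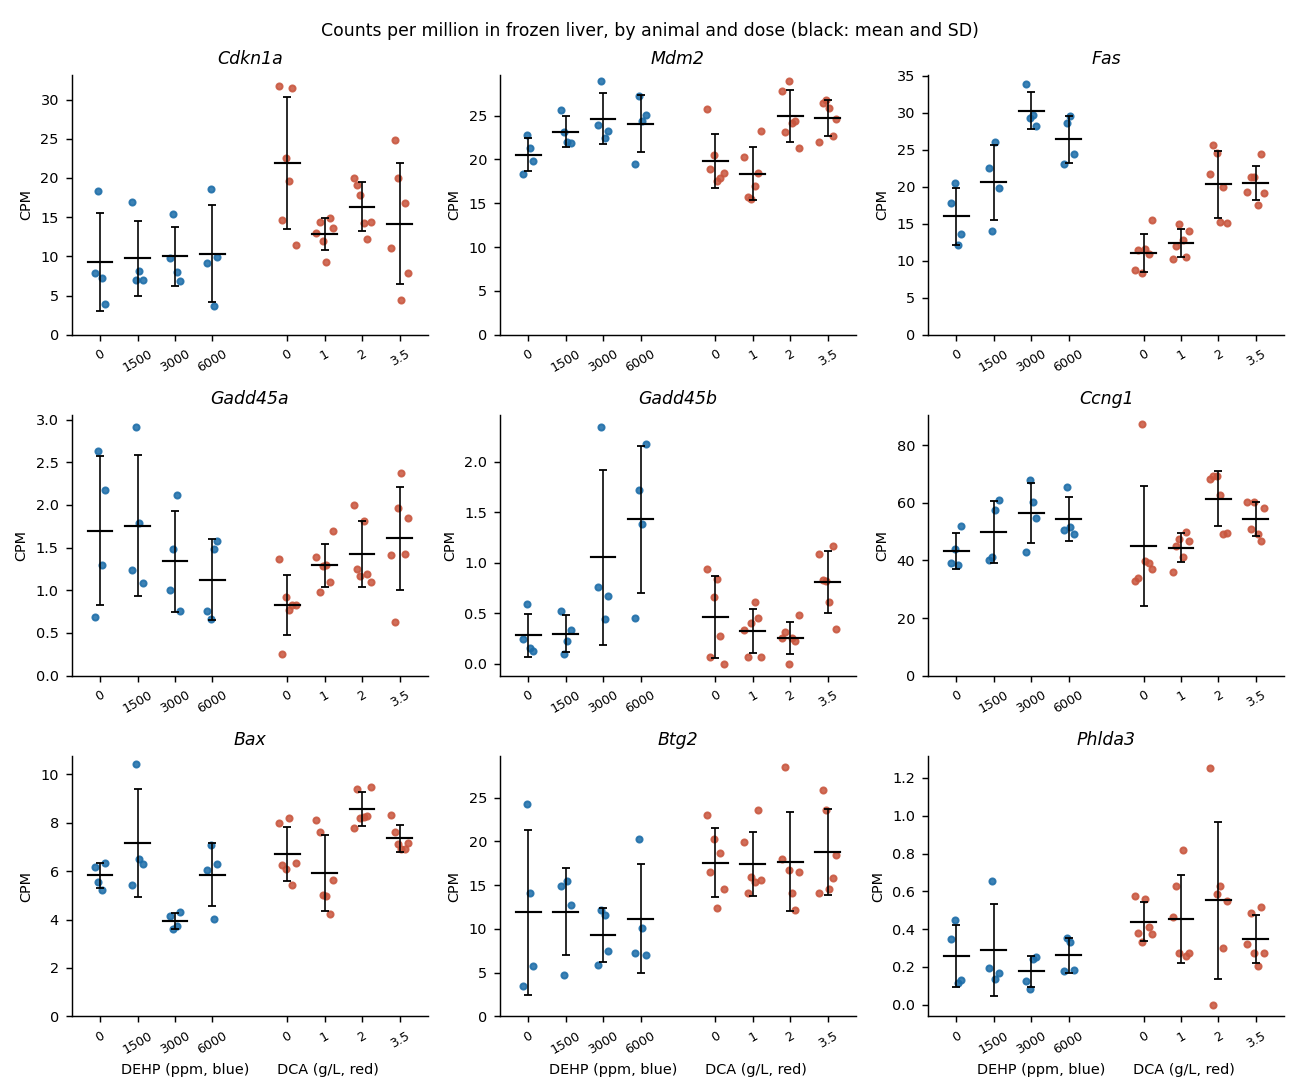
CPM of each of the 9 genes (vertical axis) in every frozen liver by dose (horizontal axis), DEHP in ppm (blue) and DCA in g/L (red), with 1 point per animal and black bars for the group mean and SD. The Fas points at 3000 and 6000 ppm DEHP and at 3.5 g/L DCA all lie above their controls, and 1 DCA control stands at 87.3 CPM for Ccng1.

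Mdm2, the ubiquitin ligase that holds p53 down (chr10:117688875-117710758, − strand, GRCm38), varied little between animals. Its DEHP frozen levels were 18.3, 22.8, 21.3 and 19.8 CPM in the controls, 25.7, 23.1, 22 and 21.9 at 1500 ppm, 24.0, 28.9, 22.5 and 23.2 at 3000 ppm, and 19.5, 27.2, 24.4 and 25.1 at 6000 ppm. At each of the upper doses 3 of the 4 animals lay above all controls, and the difference of 0.23 ± 0.12 (log2, SE) at 6000 ppm did not pass the test (adjusted p = 0.231). In DCA frozen liver the lowest, median and highest of 6 were 17.6, 18.7 and 25.8 CPM in controls, 15.5, 17.7 and 23.3 at 1 g/L, 21.3, 24.2 and 29.0 at 2 g/L, and 22, 25.3 and 26.8 at 3.5 g/L. The ranges of the upper 2 doses overlapped the controls through 1 control, animal 3, at 25.8 CPM, the other controls being at most 20.5 CPM. Mdm2 was higher by 0.31 ± 0.11 at 2 g/L (adjusted p = 0.0281) and by 0.32 ± 0.10 at 3.5 g/L (adjusted p = 0.0143), with 3 of 6 animals above all controls at 3.5 g/L. The slope over the dose range was 0.40 ± 0.11 (adjusted p = 0.00531). The 2 g/L call was lost, with an adjusted p of 0.0518 to 0.0744, without control 6, 7 or 8 or without animal 73 or 75 of that dose, and without 73, 74 and 75 together (0.23, adjusted p = 0.222). The 3.5 g/L call held in all 24 fits that left out 1 animal.

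Cdkn1a encodes p21, the inhibitor of cyclin-dependent kinases through which p53 arrests the cell cycle (chr17:29090976-29100727, + strand). It was among the most variable members between animals of one group. The DEHP frozen controls held 7.83, 18.3, 7.26 and 3.89 CPM, the 1500 ppm animals 16.9, 6.94, 8.14 and 7.04, the 3000 ppm animals 9.75, 15.4, 7.97 and 6.88, and the 6000 ppm animals 9.14, 18.6, 3.64 and 9.95. The control range covered all but 2 of the treated animals, 44A and 64C, and the 6000 ppm difference was 0.14 ± 0.46 (log2, SE; adjusted p = 0.894). In DCA frozen liver the lowest, median and highest were 11.4, 21.1 and 31.8 CPM in controls, 9.35, 13.3 and 14.8 at 1 g/L, 12.3, 16.1 and 20.1 at 2 g/L, and 4.42, 13.9 and 24.9 at 3.5 g/L. Medians under every DCA dose thus lay below the control median. The difference was −0.77 ± 0.28 at 1 g/L (adjusted p = 0.0755) and −0.63 ± 0.28 at 3.5 g/L (adjusted p = 0.0732), with 1 of 6 and 3 of 6 animals below all controls. These values sat near the threshold: without control 8 the 1 g/L difference was −0.90 (adjusted p = 0.0345), and without animal 98 the 3.5 g/L difference was −0.88 (adjusted p = 0.0139). Leaving out animal 100 for 1 g/L (adjusted p = 0.0428), or animal 4, 8 or 99 for 3.5 g/L (adjusted p = 0.0303 to 0.0478), also brought the gene past it.

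Gadd45a and Gadd45b encode small stress proteins that bind cell cycle and stress kinase regulators, and Gadd45a is a direct p53 target. Gadd45b (chr10:80930073-80932204, + strand) was low in frozen liver, with 2 to 57 counts per DEHP library. Its DEHP frozen levels were 0.246, 0.594, 0.153 and 0.128 CPM in controls and 0.526, 0.101, 0.229 and 0.339 at 1500 ppm. They were 0.755, 2.34, 0.438 and 0.675 at 3000 ppm and 0.448, 1.72, 1.38 and 2.17 at 6000 ppm. At each of these doses 3 of 4 animals lay above every control, and 1 overlapped them. The difference was 2.27 ± 0.63 (log2, SE) at 6000 ppm (adjusted p = 0.0272) and 1.84 ± 0.64 at 3000 ppm (adjusted p = 0.0623), and the slope over the dose range was 2.46 ± 0.62 (adjusted p = 0.0426). Without 35A and 67C the 6000 ppm difference was 2.29 (adjusted p = 0.0191). The 6000 ppm call was lost without control 32A, 63A or 75A or without animal 44A or 8C, with adjusted p between 0.0544 and 0.0938. The 3000 ppm difference passed without 45C, 71A or 29B (adjusted p = 0.0337, 0.0462 and 0.0454). The slope was called in 5 of 16 fits that left out 1 animal, and lost without 32A, 63A, 75A, 60A, 72B, 35A, 71A, 9A, 44A, 64C or 8C (adjusted p = 0.0527 to 0.137).

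Gadd45b in DCA frozen liver gave 0 to 18 counts per library, with lowest, median and highest of 0, 0.467 and 0.934 CPM in controls and 0.342, 0.822 and 1.16 at 3.5 g/L. These ranges overlapped, and the difference of 0.81 ± 0.49 did not pass the test (adjusted p = 0.194). Its slope passed without control 3 alone (1.30, adjusted p = 0.0487). Gadd45a (chr6:67035096-67037457, − strand) was called with DCA and not with DEHP. With DCA its lowest, median and highest were 0.252, 0.823 and 1.37 CPM in controls, 0.977, 1.29 and 1.70 at 1 g/L, 1.10, 1.22 and 2.01 at 2 g/L, and 0.623, 1.64 and 2.38 at 3.5 g/L. At 3.5 g/L 5 of 6 animals exceeded all controls, and Gadd45a rose by 0.96 ± 0.29 (adjusted p = 0.00869), with a slope of 0.84 ± 0.27 (adjusted p = 0.0166). The 3.5 g/L call held in all 24 fits without 1 animal, and the slope was lost without animal 100 (adjusted p = 0.0628). At 2 g/L the difference of 0.77 ± 0.31 (adjusted p = 0.0654) passed without control 3 or animal 98 (adjusted p = 0.0276 and 0.0401). Counts were 4 to 35 per library. In DEHP frozen liver the controls held 0.690, 2.64, 1.30 and 2.17 CPM and the 6000 ppm animals 0.762, 0.665, 1.49 and 1.58, with overlapping ranges and a difference of −0.61 ± 0.45 (adjusted p = 0.443).

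Ccng1 encodes cyclin G1, a p53 target that binds a phosphatase acting on Mdm2 (chr11:40748552-40755311, − strand). Its DEHP frozen levels were 39.0, 44.1, 38.3 and 51.8 CPM in controls, 40.2, 41.3, 57.6 and 61.0 at 1500 ppm, 42.9, 68.0, 60.3 and 54.7 at 3000 ppm, and 50.7, 65.6, 51.7 and 49.3 at 6000 ppm. At 3000 ppm 3 of 4 animals and at 6000 ppm 1 of 4 exceeded all controls. The differences of 0.39 ± 0.17 (log2, SE; adjusted p = 0.126) and 0.33 ± 0.17 (adjusted p = 0.223) did not pass the test, apart from 3000 ppm without 35A (0.51, adjusted p = 0.0477). In DCA frozen liver the lowest, median and highest were 32.8, 38.2 and 87.3 CPM in controls, 35.9, 45.8 and 49.7 at 1 g/L, 49.3, 65.5 and 69.4 at 2 g/L, and 46.8, 54.7 and 60.3 at 3.5 g/L. Animal 5, a control, held 87.3 CPM, above every treated animal, while the other 5 controls held at most 39.7 CPM, below every animal of the upper doses. With all animals the differences were 0.43 ± 0.18 at 2 g/L (adjusted p = 0.0699) and 0.27 ± 0.17 at 3.5 g/L (adjusted p = 0.216). Without control 5 they were 0.73 (adjusted p = 1.69e-05) and 0.57 (adjusted p = 9.73e-05). At 2 g/L the gene also passed with DESeq2 on all animals (0.44, adjusted p = 0.0466) and without animal 78 (0.49, adjusted p = 0.0494). Animals 73, 74 and 75, the shallow libraries of 1 lane, held 68.4 to 69.4 CPM at 2 g/L and the other 3 held 49.3 to 62.6 CPM. Without these 3 the 2 g/L difference was 0.25 (adjusted p = 0.443).

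Btg2, an antiproliferative p53 target that is also induced quickly by growth and stress signals (chr1:134075170-134079120, − strand), spanned a wide range among untreated animals. The DEHP frozen controls held 3.50, 24.2, 14.1 and 5.75 CPM and the 6000 ppm animals 7.26, 20.3, 10.1 and 6.97, all within the control range. The difference was −0.10 ± 0.50 (log2, SE). In DCA frozen liver the lowest, median and highest were 12.4, 17.6 and 23.1 CPM in controls and 14.2, 17.1 and 25.9 at 3.5 g/L, a difference of 0.09 ± 0.18 (adjusted p = 0.712). Phlda3, a p53-induced repressor of Akt signalling on the same chromosome (chr1:135766119-135769136, + strand), gave at most 13 counts per frozen library. Its DCA frozen medians were 0.395, 0.368, 0.567 and 0.297 CPM from 0 to 3.5 g/L, and it was not tested.

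Fas encodes the death receptor that binds Fas ligand and is a p53 target on chromosome 19 (chr19:34290666-34327772, + strand). Its DEHP frozen levels were 17.9, 20.6, 12.2 and 13.6 CPM in controls and 22.5, 14, 26.1 and 19.9 at 1500 ppm. They were 33.9, 29.3, 29.8 and 28.2 CPM at 3000 ppm and 23.1, 28.7, 29.5 and 24.5 at 6000 ppm. Every animal at the upper doses exceeded every control, and 2 of 4 did at 1500 ppm. Fas rose by 0.91 ± 0.18 (log2, SE) at 3000 ppm (adjusted p = 0.00291) and by 0.72 ± 0.18 at 6000 ppm (adjusted p = 0.0148). The difference at 1500 ppm was 0.36 ± 0.18 (adjusted p = 0.264), and the slope of 0.72 ± 0.23 did not pass the test (adjusted p = 0.0916), with mean levels of 30.3 ± 2.49 CPM at 3000 ppm and 26.4 ± 3.16 CPM at 6000 ppm (SD, n = 4). The slope passed without animal 29B (0.86, adjusted p = 0.0344). The 3000 and 6000 ppm calls held in 16 of 16 fits without 1 animal, and without both 35A and 67C the values were 0.86 (adjusted p = 0.0320) and 0.74 (adjusted p = 0.0206).

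With DCA the lowest, median and highest Fas level in frozen liver were 8.39, 11.2 and 15.5 CPM in controls, 10.2, 12.4 and 15 at 1 g/L, 15.1, 20.9 and 25.6 at 2 g/L, and 17.6, 20.3 and 24.4 at 3.5 g/L. The top-dose range lay wholly above the control range, and 4 of 6 animals at 2 g/L exceeded all controls. At 2 g/L the 3 shallow libraries of 1 lane (73, 74 and 75) held the highest values, 21.8, 25.6 and 24.6 CPM, and the 3 deeper ones (76, 77 and 78) held 15.2, 19.9 and 15.1 CPM, of which 1 exceeded all controls. Fas rose by 0.82 ± 0.15 at 2 g/L (adjusted p = 0.000186) and by 0.89 ± 0.14 at 3.5 g/L (adjusted p = 1.86e-05), with a slope of 0.97 ± 0.15 (adjusted p = 1.50e-05). The 1 g/L difference was 0.16 ± 0.14 (adjusted p = 0.495). Without 73, 74 and 75 the 2 g/L difference was 0.59 (adjusted p = 0.0138) and that at 3.5 g/L 0.87 (adjusted p = 1.72e-05). The 2 and 3.5 g/L calls and the slope were kept in 24 of 24 fits that left out 1 animal.

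Bax, the pore-forming protein of the mitochondrial death pathway (chr7:45461697-45466898, − strand), was low at 1 DEHP dose without passing the test. The frozen controls held 6.16, 5.57, 5.24 and 6.32 CPM, the 1500 ppm animals 5.45, 10.4, 6.49 and 6.30, the 3000 ppm animals 4.15, 3.62, 3.74 and 4.30, and the 6000 ppm animals 6.05, 7.08, 4.02 and 6.29. All 4 animals at 3000 ppm lay below every control, with a difference of −0.56 ± 0.20 (log2, SE; adjusted p = 0.0737). It passed without animal 40A of the 1500 ppm group (−0.56, adjusted p = 0.0282) and with only the 2 groups compared (−0.54, adjusted p = 0.0381). In DCA frozen liver the lowest, median and highest were 5.42, 6.29 and 8.21 CPM in controls, 7.77, 8.26 and 9.49 at 2 g/L, and 6.92, 7.16 and 8.33 at 3.5 g/L. The difference was 0.36 ± 0.14 at 2 g/L (adjusted p = 0.0544) and 0.13 ± 0.13 at 3.5 g/L (adjusted p = 0.435). At 2 g/L it passed without animal 3 or 6 of the controls (0.41 and 0.42, adjusted p = 0.0360 and 0.0293) or without animal 49, 50 or 53 of 1 g/L. It also passed in the fit that held a run term (0.36, adjusted p = 0.0428) and with only the 2 groups compared (0.35, adjusted p = 0.0434). Without 73, 74 and 75 it was 0.37 (adjusted p = 0.130).

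**Figure D2:**
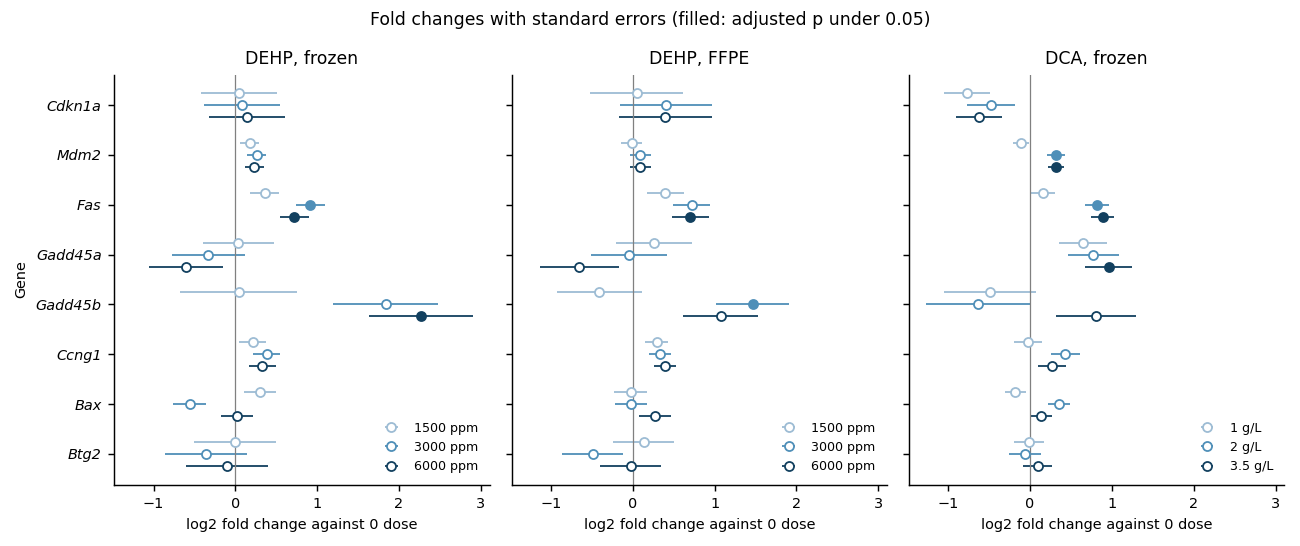
Log2 fold change against dose 0 (horizontal axis, bars are ± 1 SE) of each tested member at each dose, in DEHP frozen, DEHP FFPE and DCA frozen liver, with filled points for adjusted p under 0.05. In frozen liver Fas is filled at 3000 and 6000 ppm DEHP and at 2 and 3.5 g/L DCA, Gadd45b at 6000 ppm DEHP, Mdm2 at 2 and 3.5 g/L DCA and Gadd45a at 3.5 g/L DCA.

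Sequencing runs, as named in the column headers, were not spread evenly over doses. The 4 DEHP frozen controls came from 2 runs that also held 1 animal of each treated group, 72B (1500 ppm), 35A (3000 ppm) and 8C (6000 ppm). In those runs Fas was 33.9 CPM in 35A and 24.5 CPM in 8C, against 19.9 CPM in 72B and 12.2 to 20.6 CPM in the controls. With run as a term the DEHP frozen values were 0.94 for Fas at 3000 ppm (adjusted p = 0.0491), 0.71 for Fas at 6000 ppm (adjusted p = 0.121), and 2.19 for Gadd45b at 6000 ppm (adjusted p = 0.0616) and for its slope (adjusted p = 0.236). So the sizes were nearly the same and 1 of the 4 calls was kept. In the DCA study all 6 frozen controls shared 1 lane and all 6 animals of 3.5 g/L another lane of the same run, so that lane and dose cannot be told apart.

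Markers of the liver's cell types were set beside these values. At 6000 ppm DEHP, 4 of 6 hepatocyte markers fell (summed level 74593 to 84834 CPM in controls and 50119.7 to 66460 at 6000 ppm), and 0 of 7 Kupffer cell markers and 0 of 3 tested lymphocyte markers were called by edgeR (0 of either at unadjusted p under 0.05). The Kupffer cell markers had a median difference of 0.46 and summed to 158 to 260 CPM in controls and 207 to 324 CPM at 6000 ppm. Of the endothelial and stellate cell markers, 1 of 6 (Oit3, 0.41 ± 0.12, adjusted p = 0.0311) and 1 of 6 (Col3a1, 0.77 ± 0.21, adjusted p = 0.0244) rose. The medians of these lists were 0.15 and −0.05, and 2 of 6 and 4 of 6 were at unadjusted p under 0.05 (edgeR). Of the bile duct markers 0 of 4 and of the red blood cell markers 0 of 2 tested were called by edgeR (1 of each at unadjusted p under 0.05). Over all 13802 genes tested at this dose, 973 were called higher and 652 lower. The summed level of the 10 lymphocyte markers was 15.7 to 21.8 CPM in controls and 16.7 to 26 CPM at 6000 ppm. At 3.5 g/L DCA, 5 of 6 hepatocyte, 6 of 7 Kupffer cell, 4 of 6 stellate cell, 2 of 6 endothelial and 4 of 4 tested red blood cell markers fell. Of the bile duct markers 0 of 5 (list median 0.03) and of the lymphocyte markers 0 of 1 tested were called by edgeR (0 of either at unadjusted p under 0.05). Over all genes at this dose 43.0% were called, and 2763 of 13089 were called lower. Kupffer cell markers summed to 243 to 339 CPM in DCA controls and to 136 to 206 CPM at 3.5 g/L. The part of cell composition in the Fas, Gadd45a, Gadd45b and Mdm2 results was not tested. In bulk tissue, fewer cells of a type and less RNA per cell cannot be told apart.

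The FFPE libraries of the same DEHP animals gave a second measurement. At 1500 ppm 0 of 8 members were called (edgeR; 1 at unadjusted p under 0.05, 0 by DESeq2), against 5.86% of all genes. At 3000 ppm 1 of 8 was called against 9.39%, and at 6000 ppm 1 of 8, higher, against 12.4% called and 7.94% called higher. For the slope 0 of 8 were called (3 at unadjusted p under 0.05, 0 by DESeq2) against 3.59%. Fas in FFPE liver was 11.9, 15.2, 7.52 and 9.72 CPM in controls, 17.4, 14.1, 12.6 and 14 at 1500 ppm, 25.9, 14.9, 13.3 and 18.9 at 3000 ppm, and 13.4, 19.6, 18.8 and 20.4 at 6000 ppm. At 6000 ppm 3 of 4 animals exceeded all controls, and 2 of 4 did at 3000 ppm. Fas rose by 0.70 ± 0.23 (log2, SE) at 6000 ppm (adjusted p = 0.0497), and the 3000 ppm difference was 0.72 ± 0.23 (adjusted p = 0.0535), past the threshold without 45C, 67C, 71A or 29B (adjusted p = 0.0239 to 0.0447). The 6000 ppm call was kept in 5 of 16 fits that left out 1 animal. It was lost without control 32A, 63A or 75A, without any animal of 1500 ppm, without 9A, or without 44A, 64C or 8C, with adjusted p of 0.0573 to 0.145. With run as a term it was 0.79 (adjusted p = 0.0166), and without 35A and 67C 0.70 (adjusted p = 0.0415).

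Gadd45b in FFPE liver was 0.391, 0.599, 0.166 and 0.389 CPM in controls, 0.334, 0.279, 0.332 and 0.219 at 1500 ppm, 0.942, 1.90, 0.822 and 0.624 at 3000 ppm, and 0.361, 0.844, 0.839 and 1.2 at 6000 ppm. All 4 animals at 3000 ppm exceeded every control, and 3 of 4 did at 6000 ppm. It rose by 1.47 ± 0.45 at 3000 ppm (adjusted p = 0.0483), and the 6000 ppm difference was 1.07 ± 0.46 (adjusted p = 0.137). The 3000 ppm call rested on a few animals: without both 35A and 67C the difference was 0.89 (adjusted p = 0.419), and of 16 fits without 1 animal it was kept in the 4 without 45C, 9A, 29B or 8C. In the other 12 the adjusted p was 0.0559 to 0.175, highest without 67C. The FFPE levels of Ccng1 were 35.1, 32.1, 31.4 and 38.9 CPM in controls and 39.8, 51.2, 42.3 and 47.0 at 6000 ppm, with every treated animal above every control. The difference of 0.39 ± 0.14 did not pass the test (adjusted p = 0.0706). Cdkn1a, Btg2 and Gadd45a again overlapped between 0 and 6000 ppm, at 0.40 ± 0.57 (adjusted p = 0.707), −0.02 ± 0.37 and −0.66 ± 0.48 (adjusted p = 0.421). Bax, below all controls in frozen liver at 3000 ppm, held 3.82, 6.94, 6.78 and 4.99 CPM in the FFPE libraries of those animals against 5.47, 5.88, 4.98 and 6.5 in controls, so that these FFPE values spread to both sides of the controls.

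Whether the dose effect differed between preparations was tested in 1 fit with the animal as block. At 6000 ppm 0 of 8 members differed (edgeR; 1 at unadjusted p under 0.05), and so did 0 of 14065 genes (0% called, 254 at unadjusted p under 0.05). For Gadd45b the FFPE effect was lower by 1.23 ± 0.52 (unadjusted p = 0.0298, adjusted p = 1.00). For Fas the difference was −0.01 ± 0.21.

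Levels in the DEHP controls did differ between preparations, for 2 of 8 members against 31.3% of all genes. On a scaling shared by both preparations, Cdkn1a was 7.60, 17.7, 7.00 and 3.70 CPM in frozen liver of animals 32A, 45C, 63A and 75A and 15.2, 34.1, 8.85 and 5.65 CPM in their FFPE libraries. It was higher in FFPE in 4 of 4 animals, by 0.74 ± 0.18 (log2, SE; adjusted p = 0.00358). Fas was 17.3, 19.9, 11.8 and 12.9 CPM in frozen and 12.4, 15.5, 7.71 and 9.88 CPM in FFPE liver, lower in 4 of 4 animals, by −0.46 ± 0.15 (adjusted p = 0.0229). The Cdkn1a call held in 16 of 16 fits without 1 animal. The Fas call was lost without any 1 of the 4 controls, with adjusted p of 0.0546 to 0.0888. Hepatocyte markers were lower in FFPE liver too (6 of 6 called) and 5 of 7 Kupffer cell markers, and 4 of 12 immediate early genes were higher, none lower. Their part in the Cdkn1a and Fas values was not tested.

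**Figure D3:**
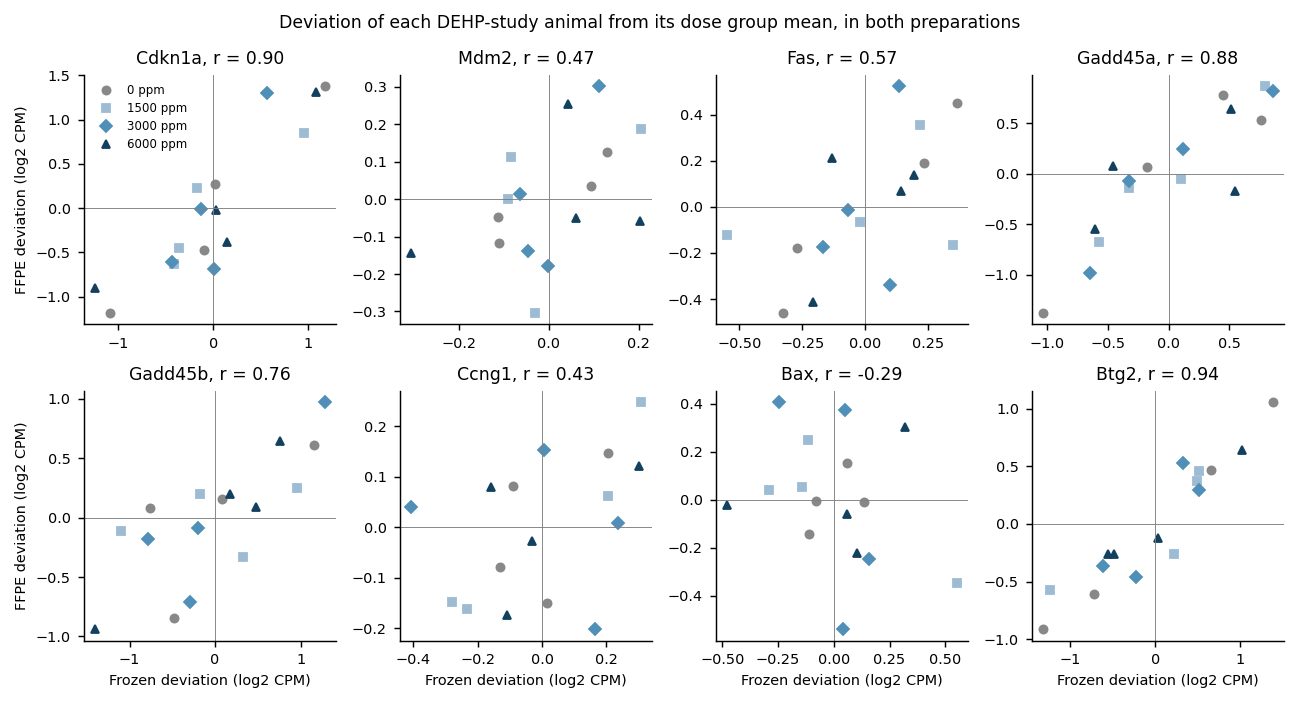
Deviation of each DEHP animal's log2 CPM from its dose group mean in frozen liver (horizontal axis) against the same in FFPE liver (vertical axis), 1 panel per gene and 1 point per animal (16 animals), marked by dose, with Pearson r above each panel. Btg2, Cdkn1a and Gadd45a lie along a line, with r of 0.941, 0.899 and 0.883, and Bax does not.

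The spread between DEHP animals of one dose was shared by the preparations for part of the members. Deviations of log2 CPM from the dose group mean were correlated over 16 animals, for 8 genes, with permutation within dose (100000 draws) and Benjamini-Hochberg adjustment over the 8. Pearson's r was 0.941 for Btg2 (rho 0.944, permutation p = 8.00e-05, adjusted p = 0.000587), 0.899 for Cdkn1a (rho 0.838, permutation p = 0.00015, adjusted p = 0.000587) and 0.883 for Gadd45a (rho 0.835, permutation p = 0.00022, adjusted p = 0.000587). It was 0.757 for Gadd45b (rho 0.806, permutation p = 0.005, adjusted p = 0.01). Without the 2 animals farthest from the median the 4 values were 0.931, 0.880, 0.826 and 0.594. Fas (r = 0.567, rho 0.624, adjusted permutation p = 0.0637), Mdm2 (0.472, rho 0.444, 0.109), Ccng1 (0.432, rho 0.426, 0.185) and Bax (−0.290, rho −0.335, 0.295) did not pass. Without 35A and 67C the order of the genes was led by the same 3, at 0.949, 0.938 and 0.889, and Ccng1 was at 0.682. Among the untreated animals control 45C was highest for Cdkn1a and for Btg2 in both preparations.

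The DCA FFPE libraries carried little information on these genes. Of the 9 members 1, Btg2, passed the filter on low counts. It was not called at any dose by edgeR (0 at unadjusted p under 0.05 and 0 by DESeq2 at each dose and for the slope), where 0.126%, 0.335% and 0.293% of all 4772 tested genes were called at 1, 2 and 3.5 g/L and 0.356% for the slope. Its counts were 48, 145, 23, 165, 54 and 82 in the 6 control libraries, 0 to 6 at 2 g/L and 0 to 17 at 3.5 g/L, with 4 of 6 libraries at 0 at 3.5 g/L. The differences of −1.04, −1.0 and −0.46 stood beside medians over all tested genes of −0.27, −0.67 and −0.68 and are read against those. Gadd45b had 0 counts in all 24 libraries. In controls 3 counts, the limit that a count of 0 allows for counting error, were worth 0.306 CPM in the deepest and 4.23 CPM in the shallowest library, and the frozen controls held 0 to 0.934 CPM. A level like theirs was not detectable in the shallower FFPE libraries. Fas gave 0, 24, 1, 0, 0 and 0 counts in the 6 FFPE controls. On a shared scaling these were 0, 3.79, 0.585, 0, 0 and 0 CPM, against 6.54, 8.64, 6.30, 8.70, 8.10 and 11.6 CPM in the frozen libraries of the same animals. This was the 1 member of 6 tested that was called between preparations in DCA controls (adjusted p = 0.0182), where 1.78% of genes were, and it was lost without control 6, 7 or 8 (adjusted p = 0.0825 to 0.0972). For the difference in the 3.5 g/L effect 0 of 6 members were called (edgeR; 1 at unadjusted p under 0.05), against 0.0607% of genes. FFPE controls and the upper doses were sequenced in different runs, so run and dose cannot be told apart there. The FFPE controls and the frozen controls also came from different runs. Run and preparation thus cannot be told apart in the comparison of DCA controls, that of Fas included.

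The treatments were compared directly in frozen liver, each against its own controls, as given: routes, doses and times were not matched. Of 8 members 1 differed, against 13.3% of all genes. The Gadd45a effect of 6000 ppm DEHP was lower than that of 3.5 g/L DCA by −1.56 ± 0.52 (log2, SE; adjusted p = 0.0406). The call was kept in 10 of 20 fits without 1 animal of these groups. It was lost without 45C, 75A, 29B or 44A of DEHP or without 4, 6, 7, 99, 100 or 102 of DCA, with adjusted p of 0.0519 to 0.127. For Gadd45b the difference was 1.47 ± 0.83 (adjusted p = 0.252) and for Cdkn1a 0.78 ± 0.54 (adjusted p = 0.360). For Fas it was −0.15 ± 0.23 (adjusted p = 0.712) and for Mdm2 −0.08 ± 0.16 (adjusted p = 0.794).

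Levels of different genes were ordered in untreated liver by the authors' FPKM, which is per transcript length. In DEHP frozen controls the medians were 11.9 for Ccng1, 11 for Fas, 6.84 for Mdm2, 6.40 for Bax, 4.07 for Cdkn1a, 3.21 for Btg2, 1.41 for Gadd45a, 0.165 for Gadd45b and 0.160 for Phlda3. Among neighbours in this order the ranges of 4 animals were apart between Fas and Mdm2 and between Gadd45a and Gadd45b, and overlapped for the others. In DCA frozen controls Cdkn1a came first at 11.4, before Ccng1 (10.5), Fas (8.27), Bax (7.65), Mdm2 (6.06) and Btg2 (5.62). A gap with no overlap then separated Gadd45a (0.715), Gadd45b (0.400) and Phlda3 (0.280). The ranges of neighbours before that gap overlapped, those of Cdkn1a and Ccng1 included. Cdkn1a had the highest median FPKM in DCA controls and came after Ccng1, Fas, Mdm2 and Bax in DEHP controls, but by mean FPKM Ccng1 was first in DCA controls too (12.8 against 11.7). That Ccng1 mean includes a highest value of 25.1, and control 5 stood apart for this gene at 87.3 CPM. These livers differ in year, storage and sequencing, the tables were quantified separately, and the difference was not tested.

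**Figure D4:**
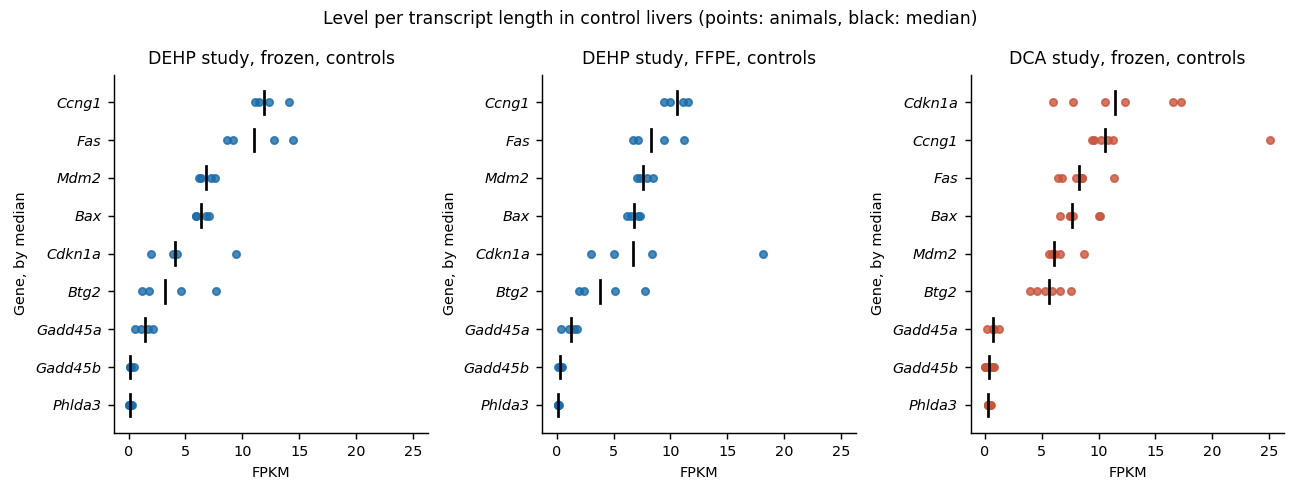
FPKM (horizontal axis, linear, per transcript length) of the 9 genes in control livers, in DEHP frozen, DEHP FFPE and DCA frozen sets, with 1 point per animal and a black line at the median. In each set the points of Ccng1, Fas, Mdm2 and Bax lie above all points of Gadd45a, Gadd45b and Phlda3.

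Over the 40 frozen libraries, with log2 CPM centred within each chemical, the members with the most similar patterns were Mdm2 and Fas (Pearson r = 0.631), Fas and Ccng1 (0.551), Mdm2 and Ccng1 (0.532) and Cdkn1a and Btg2 (0.481). These libraries share doses and depth, so the values are descriptions. The genes most like Fas over the same 40 libraries were Slc16a1, a lactate and monocarboxylate transporter (r = 0.888), Casp8, the caspase that death receptors activate (0.886), and Ppp2r5c, a phosphatase subunit (0.863). Mdm2 was most like Dync1li1 (0.787), Txnrd1 (0.784) and Dtnb (0.781), Ccng1 was close to Slc35f5 (0.756) and Asnsd1 (0.754), and Bax most like Tceb2 (0.791), Aes (0.778) and Exosc4 (0.777). The low or variable members had less close neighbours, such as Lnx2 (0.657) and Chka (0.655) for Cdkn1a, Rhbdd1 (0.641) for Gadd45a, Myl12a (0.632) for Gadd45b, Myadm (0.612) for Btg2 and Wdr13 (0.658) for Phlda3. Some of these values were unequal within the chemicals. In DEHP and DCA libraries apart, r was 0.312 and 0.795 for Rhbdd1, 0.841 and 0.437 for Myl12a, and 0.720 and 0.347 for Myadm. For Dtnb with Mdm2 it was 0.506 and 0.840, and for Slc16a1 with Fas 0.853 and 0.935.

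The rest of the pathway was read from lists of related genes. Trp53 itself was not called, at −0.29 ± 0.26 (log2, SE) at 6000 ppm DEHP (adjusted p = 0.546) and −0.01 ± 0.11 at 3.5 g/L DCA (adjusted p = 0.937). Mdm4, the partner of Mdm2, was not either (−0.13 ± 0.09, adjusted p = 0.411, and 0.08 ± 0.05, adjusted p = 0.151). Of 10 tested p53 regulators 0 were called by edgeR at 6000 ppm DEHP in frozen liver (3 at unadjusted p under 0.05, list median −0.13), and at 3.5 g/L DCA 2 rose and 1 fell (median 0.03), a smaller share than the 43.0% of all genes called. Usp7, which removes ubiquitin from Mdm2 and p53, rose by 0.22 ± 0.05 (adjusted p = 0.00189), Rchy1 rose by 0.25, and Atm, the kinase of the DNA damage response, fell by 0.41 (adjusted p = 0.00633). Gadd45g, the third Gadd45 gene, was at 1.19 ± 0.72 with DEHP (adjusted p = 0.325) and −1.12 ± 0.52 with DCA (adjusted p = 0.0848).

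Of 24 other p53 targets tested at 6000 ppm DEHP, 3 rose and 0 fell, where 7.05% of all genes were called higher, with a median of 0.20 against −0.03 over all genes tested. These were Ckap2 (3.54 ± 0.78, adjusted p = 0.00704), which is a spindle protein, the stress cytokine Gdf15 (1.69 ± 0.51, adjusted p = 0.0405) and Perp (0.59 ± 0.12, adjusted p = 0.00330). At 3.5 g/L DCA 10 of 23 rose and 2 fell, with a median of 0.35 against −0.02, where 21.9% of all genes were called higher. Rps27l, a ribosomal protein paralogue induced by p53, rose by 0.80 ± 0.08 (adjusted p = 3.46e-08), the nuclease Aen by 0.79 ± 0.09 (adjusted p = 2.25e-07) and Ei24 by 0.35 ± 0.06 (adjusted p = 8.63e-05). Sesn1 and Trp53inp1, both p53 targets of the stress response, fell by 0.49 and 0.48 (adjusted p = 0.00168 and 0.0198).

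Of 14 other growth arrest genes 1 rose with DEHP (Tob1, an antiproliferative protein of the Btg family, 0.69 ± 0.21, adjusted p = 0.0447), with a list median of −0.14. At this dose, 6000 ppm, 7.05% of all genes were called higher and 11.8% in either direction. With DCA 1 rose and 4 fell, among them Cdkn1b, the inhibitor p27, by 0.52 (adjusted p = 7.98e-05) and Tob2 by 0.74 (adjusted p = 0.00283), with a list median of −0.27. The 5 called of 14 are not above the 43.0% of all genes called at this dose. Of 18 apoptosis genes 2 rose with DEHP, Cycs (cytochrome c, 0.78 ± 0.17, adjusted p = 0.00650) and Casp9 (0.44 ± 0.13, adjusted p = 0.0367). The list median was −0.06, and the 2 of 18 stand beside the same 7.05% of all genes called higher. With DCA 4 rose and 5 fell of 18, with a median of 0.04, a share near the 43.0% of all genes called. Casp8, the caspase directly downstream of Fas, rose by 1.01 ± 0.11 (adjusted p = 8.51e-08) and the Bax relative Bak1 by 0.54 ± 0.09 (adjusted p = 3.08e-05), while Bok fell by 1.91 (adjusted p = 3.70e-08) and Bmf by 1.17 (adjusted p = 0.00459). The immediate early genes showed 0 calls of 11 with DEHP by edgeR (0 at unadjusted p under 0.05) and 3 higher and 3 lower of 10 with DCA, led by Atf3 (2.44 ± 0.26, adjusted p = 4.29e-08). Beside these counts, 11.8% of all genes were called with DEHP and 43.0% with DCA.

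Among cell division genes at 6000 ppm DEHP, 12 of 21 rose and 0 fell, with a median of 1.35, where 7.05% of all genes were called higher. At 1500 and 3000 ppm 2 and 1 of the 21 were called, where 6.48% and 14.7% of all genes were. For the slope 0 were called, against 2.61% of all genes. The list medians were nonetheless 0.839 at 1500 ppm, 0.795 at 3000 ppm and 1.18 for the slope. The list summed to 53.8 to 87.5 CPM in controls, 95.03 to 153 CPM at 1500 ppm and 89.4 to 125 CPM at 3000 ppm. At 6000 ppm the sum was 102 to 270 CPM, so every treated animal lay above every control. Those that rose at 6000 ppm included the replication helicase subunits Mcm4 (0.92 ± 0.18, adjusted p = 0.00359) and Mcm2 (1.25 ± 0.27, adjusted p = 0.00669), the mitotic cyclin gene Ccnb1 (3.55 ± 0.75, adjusted p = 0.00520) and Mki67 (2.27 ± 0.51, adjusted p = 0.00772). At 2 g/L DCA 13 of 21 were called higher and 0 lower, with a median of 0.945, where 2025 of 13089 genes were called higher. The summed level of the list was 109 to 164 CPM in DCA controls and 199 to 338 CPM at 2 g/L, a group that held the shallow libraries of 1 lane. At 3.5 g/L DCA 4 of 21 were called higher and 0 lower, with a median of 0.23, a share not above the 21.9% of all genes called higher. The smallest adjusted p was that of the cyclin D1 gene Ccnd1 (1.32 ± 0.20, adjusted p = 8.08e-06). In FFPE liver at 6000 ppm DEHP the counts were 5 of 24 other p53 targets higher, 10 of 20 cell division genes higher, and none lower in either list. There 7.94% of all genes were called higher.

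**Figure D5:**
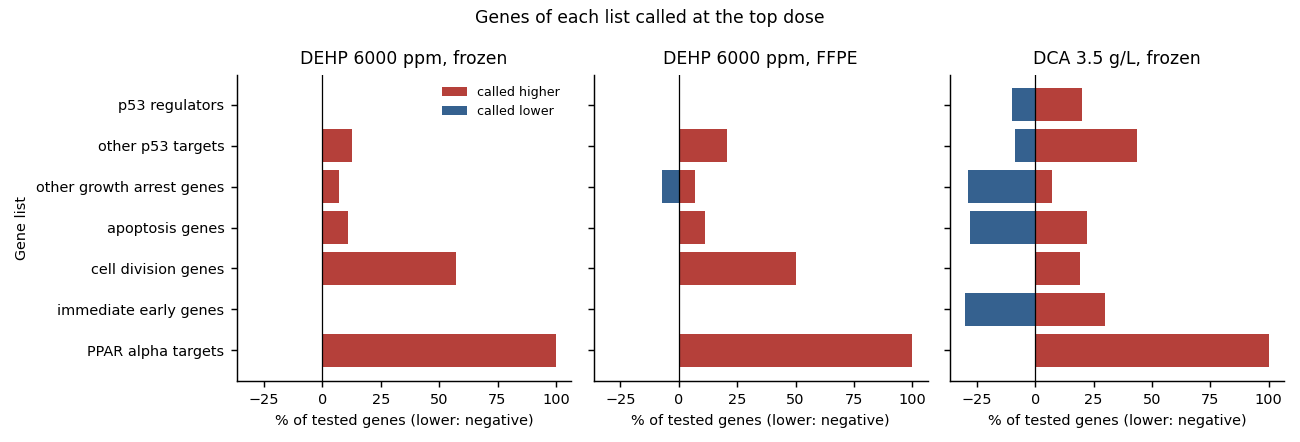
Share of the tested genes of each list (horizontal axis, percent) called higher (red) and lower (blue, drawn as negative) at the top dose, in DEHP frozen, DEHP FFPE and DCA frozen liver. All 6 PPAR alpha targets are higher in each panel, cell division genes follow at 6000 ppm DEHP with 12 of 21 in frozen liver, and other p53 targets at 3.5 g/L DCA with 10 of 23.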

How the data were processed

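CASAVA, the aligner STAR 2.4, RSEM and the mm10 genome are named in the submitters' processing notes. The library kit, per the labels' protocols, was stranded total RNA with ribosomal RNA depletion. The deposited gene tables hold RSEM expected counts, not normalised, which were rounded here to whole numbers. The authors' deposited FPKM values were used for the order of levels alone.

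Each chemical and preparation was fitted with its 4 dose groups by edgeR's quasi-likelihood test (edgeR 4.0.16 under R 4.3.3), against dose 0 and on dose. Low genes were removed by filterByExpr at a minimum count of 10, and libraries were scaled by TMM. The SE is the log2 fold change over the square root of F. Preparations were compared with the animal as replicate block, from the labels. Over all genes the frozen and FFPE deviations of a DEHP animal correlated at a median of 0.503 (lowest 0.0717) and those of a DCA animal at a median of 0.0422, so DCA pairs carry little. The chemicals were compared in 1 joint frozen fit.

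The members and lists were chosen with earlier results of these data known. Beyond them, genes were named by rule: up to 4 called genes of smallest adjusted p in each list and direction at the top frozen dose, and the 3 genes most correlated with each member. Rchy1 and the genes given by name within counts belong to those lists. Genes that the rule names and the text omits are not reported here. Of the list genes, Pidd1, Tigar, Faslg and Hba-a1 were not analysed here. Motifs were searched in RefSeq promoters, and gene positions are from GENCODE on GRCm38. On simulated counts from these libraries, the DEHP frozen step (13684 genes) recovered 72% of genes changed by 1 log2 unit and 96% by 2, and the DCA FFPE step (3541 genes) 0% and 5%. The step for a difference between DEHP preparations in the dose effect recovered 45% and 80%. Its libraries were drawn independently, while the real frozen and FFPE libraries of a DEHP animal shared deviations (median r 0.503). The 45% and 80% therefore do not take that pairing into account. In all these simulations only genes above a minimum mean count were changed, so the shares do not describe genes as low as Gadd45b. Alternatives were DESeq2 1.42.0, its size factors, no filter, a second deposited count table, only the compared groups, run as a term, the ribosomal Rn45s row left out, and leaving out each animal. Leaving out 35A and 67C, or 73, 74 and 75, was added after the data were examined. Ribosomal Rn45s took a median of 56.5% of counts in DCA FFPE libraries and 0.140% to 2.90% in the other sets. The limit given for a count of 0 covers counting error only. The SE of a dose effect within 1 preparation, or between chemicals, also includes the variation between animals. In the comparisons of preparations the animal was a block, so the SE there leaves out differences in level between animals.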

Additional observations from a re-analysis of the deposited data

Results flagged for a closer look

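In 10 of 100 groups of member values 1 library lay apart from the rest of its dose group by Dixon's gap rule. Each of these was the highest of its group. The rule's rate of about 1 in 20 holds for independent, normally spread values. It was applied to CPM that were not on a log scale, so the 10 of 100 cannot be set against that rate. In DEHP frozen liver, Cdkn1a was 16.9 CPM in animal 3A of 1500 ppm (the others 6.94 to 8.14), Gadd45b was 2.34 CPM in 67C of 3000 ppm (0.438 to 0.755) and Ccng1 was 65.6 CPM in 44A of 6000 ppm (49.3 to 51.7). Animal 44A also stood apart for Btg2 in FFPE liver, at 19.4 CPM (9.77 to 10.5).

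Among DCA frozen livers Ccng1 was 87.3 CPM in control 5 (the others 32.8 to 39.7) and Mdm2 was 25.8 CPM in control 3 (17.6 to 20.5). Btg2 was 28.5 CPM in animal 74 of 2 g/L (12.2 to 18), which is one of the shallow frozen libraries. In DCA FFPE liver Btg2 stood apart in control 3 at 67.7 CPM (8.72 to 24.1), in animal 74 at 59.3 CPM (0 to 11.4) and in animal 100 of 3.5 g/L at 102.0 CPM (0 to 7.71). Animal 74 held 6 Btg2 counts and animal 100 held 17 in these libraries.

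The Gadd45a effect differed between the treatments, by −1.56 on the log2 scale (6000 ppm DEHP minus 3.5 g/L DCA, edgeR adjusted p = 0.0406). It was called in 10 of 20 fits that left out 1 animal.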

How the results depend on the processing

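No called member changed direction under any alternative run. Of 519 alternative counts of called members over 21 comparisons, 429 stayed within 1.5 times the main count and 90 did not. DEHP frozen at 3000 ppm went from 1 called member to 2 with DESeq2, with the second count table and with only the compared groups. With DESeq2 (1.90, adjusted p = 0.0261) and the second table (1.89, adjusted p = 0.0485) the added member was Gadd45b, higher. With only the compared groups it was Bax, lower (−0.54, adjusted p = 0.0381). At 6000 ppm it went from 2 to 0 with run as a term, and the slope from 1 to 2 with DESeq2, 0 with the second table and 0 with run as a term. DEHP FFPE at 3000 ppm went from 1 to 2 with DESeq2 and to 0 with no filter, only the compared groups, run as a term, or without 35A and 67C. At 6000 ppm it went from 1 to 0 with DESeq2 size factors, no filter, only the compared groups or without Rn45s, and the slope from 0 to 1 with run as a term. DCA frozen at 1 g/L went from 0 to 1 with only the compared groups (Cdkn1a, −0.76, adjusted p = 0.0422). DCA frozen at 2 g/L went from 2 to 1 without 73, 74 and 75. With DESeq2 it also called Ccng1, and with run as a term or only the compared groups Bax. The cause was not tested.

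Leaving out 1 animal gave 1 to 2 called members for DEHP frozen at 3000 ppm, 1 to 2 at 6000 ppm and 0 to 2 for the slope, and 0 to 2, 0 to 1 and 0 to 1 for the same in FFPE. It gave 0 to 1, 1 to 4, 3 to 4 and 2 to 4 for DCA frozen at 1, 2 and 3.5 g/L and the slope, 1 to 2 for DEHP FFPE against frozen controls, 0 to 1 for DCA FFPE against frozen controls, and 0 to 1 between chemicals. For the DCA preparations only the 6 controls were left out in turn, and the other 18 were not run.

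Without the animal as replicate block, the 2 calls between DEHP preparations fell to 0 (Cdkn1a 0.81, adjusted p = 0.338, and Fas −0.45, adjusted p = 0.142). Ordered by CPM in place of FPKM, 19 of 36 ranks of members moved. Phlda3 was too low to be tested in any set, and 8 of 9 members in DCA FFPE libraries.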
